A study of Homo sapiens with 8 samples.

Results

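Prostaglandins and leukotrienes are lipid mediators made from arachidonic acid, and the report covers 9 genes that make, activate or remove them in MDA-MB-231, a human breast cancer cell line derived from a metastatic pleural effusion. The list held 10 genes, picked by name from 2 branches of the pathway with their common upstream enzyme. PTGES3 was skipped because its row on the array also names a pseudogene, so that 9 of the 10 are described, out of 22109 genes with a row of their own. Rows were to be chosen by their mean level over the 8 arrays where a gene had several. Each of the 9 genes had 1 row, so that rule left nothing to choose. PTGS2 was already known as one of the largest rises in these data when the list was drawn up, so its own rise is given as a description and not as independent evidence.

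Total RNA was hybridised to the Human Gene 2.1 ST array of Affymetrix, with a separate array for each sample, and the deposited values are on a log2 scale, so that a difference of 1 is a 2-fold change. There were 3 untreated control samples, 3 at a low dose and 2 at a high dose, all collected after 24 h. The sample titles and the treatment protocol give a crude ethanol extract of wild yam (Dioscorea villosa) root at 15 µg/mL (low) and 30 µg/mL (high), both described as sublethal, whereas the treatment field of the same samples names other agents. It gives Boswellia Serrata Extract (128 µg/mL) for the low group and, for the high group, 3-O-Acetyl-β-boswellic acid (46 µg/mL). Both descriptions divide the samples alike, but what the treated cells received, and whether low and high differ in dose or in agent, is not settled by the labels. The controls are labelled as having no treatment, and no ethanol vehicle is named for them. The labels do not state that replicates were separate cultures, so the p-values measure the spread between these samples, which may be partly technical. In RNA from a whole culture, more RNA per cell and more cells expressing a gene cannot be told apart.

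Arachidonic acid is released from membrane phospholipid by cytosolic phospholipase A2 and then enters one of several branches. In the cyclooxygenase branch, PTGS1 or PTGS2 makes prostaglandin H2, prostaglandin E synthases turn it into prostaglandin E2, and 15-hydroxyprostaglandin dehydrogenase (HPGD) inactivates the product. In the 5-lipoxygenase branch, ALOX5 with its activating protein ALOX5AP makes leukotriene A4, which LTA4H hydrolyses to leukotriene B4. The cyclooxygenase branch is active in many epithelial tumours and in inflammation, while ALOX5 and ALOX5AP are best known from leukocytes.

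Correlations across genes between arrays of the same group were 0.972 to 0.994, and the 75th percentile of the log2 value lay between 4.54 and 4.94. Control 3, low 3 and high 2 had the lowest such percentile in their group (4.73, 4.54 and 4.54). The table holds no measure of background. The 95th percentile of the mean level of 354 olfactory receptor genes, 2.15, was therefore used as a reference for dim rows. Of 7 markers listed as present in the line, 6 were above it, among them the mesenchymal filament gene VIM (mean 8.89), and SPARC (2.12) was not. The hormone receptor genes ESR1 and PGR, both listed as low or absent, had means of 1.86 and 1.35, while EPCAM (4.93) and CDH1 (3.10) of the same list lay above the reference. Of 10 leukocyte markers 6 were not above it, including PTPRC, which encodes the pan-leukocyte antigen CD45 (mean 1.13). The other 4 were above it, CD68 at 8.14 and CSF1R, CD14 and TYROBP between 2.21 and 2.57.

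Treatment was accompanied by a large rise in the inducible cyclooxygenase gene PTGS2 at both doses, and by a smaller rise in the prostaglandin E synthase gene PTGES at the low dose. The constitutive isozyme gene PTGS1 did not pass the test at either dose. No gene of the 5-lipoxygenase branch passed, although ALOX5AP had its lowest values on both high arrays. Of the 9 genes, 2 passed in low dose against control, both higher, where 3.00% of all genes passed (664 of 22109) and 1.19% passed as higher. In high dose against control 1 of the 9 passed, as higher, where 0.814% of all genes did (180) and 0.425% as higher. None of the 9 passed in high against low dose by limma, and 1 had an unadjusted p under 0.05 (ALOX5AP). In that comparison 0.00452% of all genes passed and 8.66% had an unadjusted p under 0.05. A gene passed at an adjusted p under 0.05 in limma's moderated test, with Benjamini-Hochberg adjustment over all 22109 genes. Blocking on replicate number raised the low dose count to 1059. Quantile normalization changed the split over all genes from 264 higher and 400 lower to 621 and 557 at the low dose, and from 94 and 86 to 327 and 135 at the high dose. Subtracting array medians gave 179 and 104 at the high dose. Other settings tipped the high dose split the other way, to 197 higher and 1031 lower with the replicate block, 235 and 769 with array weights, and 250 and 740 without control 3.

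At a looser threshold, an unadjusted p under 0.05, 3 of the 9 genes stood out at the low dose (PTGS2, PTGES and the phospholipase gene PLA2G4A) against 14.1% of all genes. In the high group 5 of the 9 did (these genes with PTGES2 and ALOX5AP) against 14.5% of all genes. The arrays of the groups did not overlap for 6 of the 9 genes at the low dose, where 20.0% of all genes showed this, and for 5 of the 9 at the high dose, where 30.0% did. These shares are given as a description, since the genes were not a blind choice.

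**Figure D1:**
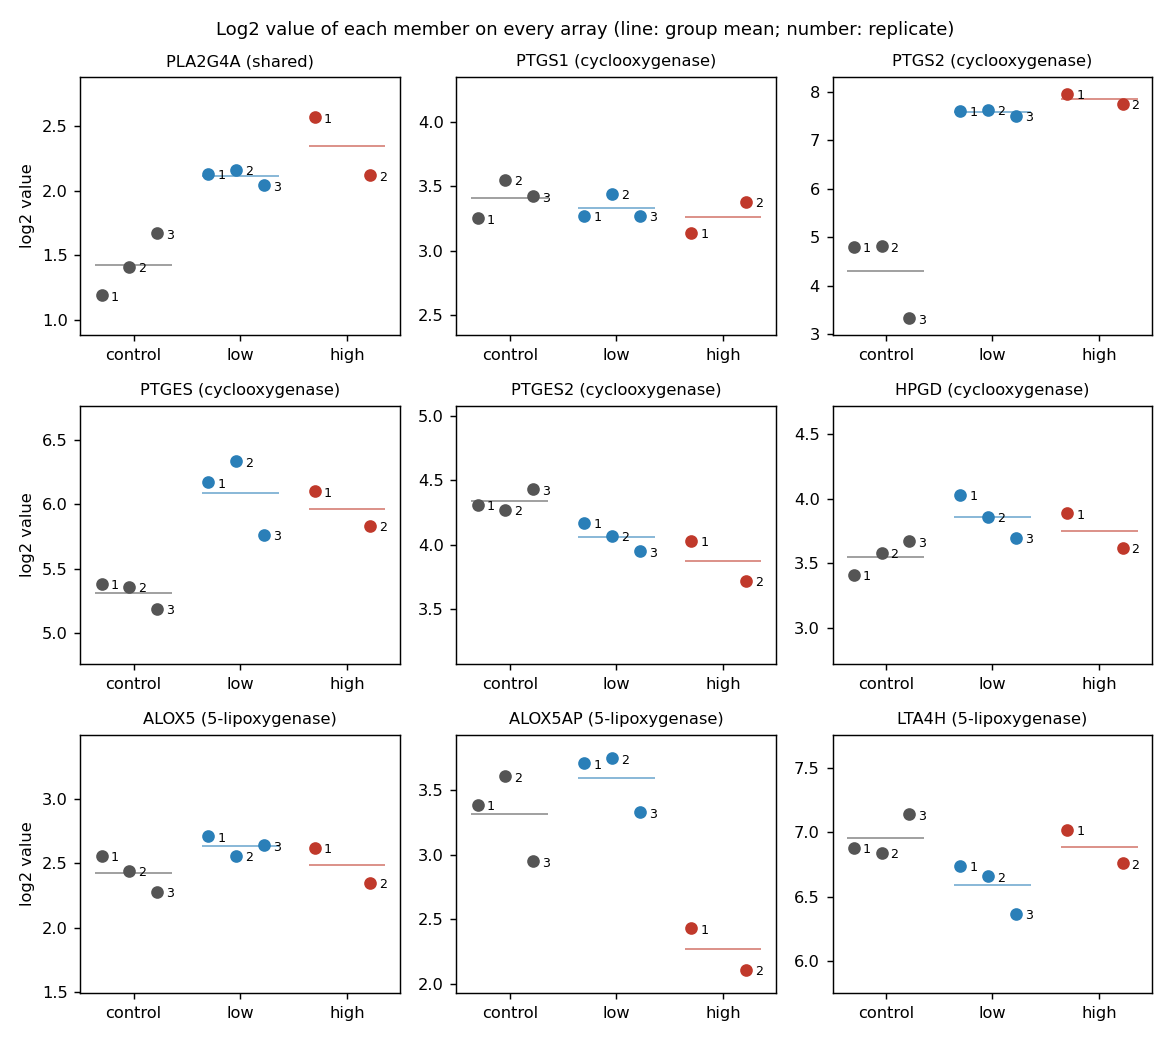
Log2 value (vertical axis) of each of the 9 genes on every array by group (horizontal axis), with 1 point per array numbered by replicate and a line at the group mean. The vertical scales differ between panels and each spans at least 2 log2 units. PTGS2 lay at 3.33 to 4.81 on the control arrays and at 7.50 to 7.95 on the treated arrays, while ALOX5AP was at 2.43 and 2.11 on the high arrays and at 2.95 or above elsewhere.

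PLA2G4A encodes the cytosolic phospholipase A2 that supplies arachidonic acid to both branches. The log2 values were 1.19, 1.41 and 1.67 in the controls, 2.13, 2.16 and 2.04 at the low dose, and 2.57 and 2.12 at the high dose. All treated arrays lay above all controls. The difference from control was 0.68 ± 0.18 (SE; 3 against 3 arrays; adjusted p = 0.0719) at the low dose and 0.92 ± 0.20 (2 against 3 arrays; adjusted p = 0.0682) at the high dose, so neither passed. The 95% intervals were 0.29 to 1.08 and 0.48 to 1.36. The row is dim: of the group means only that of the high dose, 2.34, exceeded the dim reference, and it passed a filter on dim rows through that group alone. Values so close to the floor may understate a fold change, which was not tested here. The differences passed without control 3 (0.81, adjusted p = 0.0354, and 1.04, adjusted p = 0.0154). In all they passed under 4 of 18 alternative settings at the low dose and 7 of 17 at the high dose. Over all settings, whether they passed or not, the adjusted p-values were 0.00166 to 0.241 and 0.0129 to 0.235.

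PTGS2 encodes cyclooxygenase 2, the isozyme whose transcription responds to cytokines, growth factors and stress. Per array, the log2 level was 4.80, 4.81 and 3.33 in the controls, 7.60, 7.62 and 7.50 at the low dose, and 7.95 and 7.75 at the high dose. Every treated array exceeded every control by more than the whole range of the controls, and control 3 lay well below the other controls. The rise was 3.26 ± 0.33 at the low dose (adjusted p = 0.00104), a 9.60-fold difference (95% interval 5.81 to 15.9). For the high dose it was 3.54 ± 0.37 (adjusted p = 0.00217), an 11.6-fold difference (6.63 to 20.4). It was the largest rise of all 22109 genes at the low dose and ranked 3 at the high dose. Without control 3 the rises were 2.77 and 3.05, with adjusted p-values of 8.42e-06 and 1.21e-05, since the spread of the controls shrank. The low dose rise passed under all 18 alternative settings. The high dose rise passed under 16 of 17, the exception being the fit without high 1 (3.44, adjusted p = 0.0562). High against low dose gave 0.28 ± 0.37 (95% interval -0.53 to 1.09, adjusted p = 0.861), a ratio of 1.21 with an interval of 0.691 to 2.12, so the treated groups were not shown to differ, although the high arrays (7.75 and 7.95) lay above the low ones.

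PTGS1 encodes cyclooxygenase 1, the isozyme that most tissues express constitutively. On the log2 scale it stood at 3.25, 3.55 and 3.42 in the controls, 3.27, 3.44 and 3.27 at the low dose, and 3.14 and 3.38 at the high dose, and the groups overlapped. The difference was -0.08 ± 0.15 at the low dose (95% interval -0.42 to 0.26, adjusted p = 0.896) and -0.15 ± 0.17 at the high dose (-0.53 to 0.23, adjusted p = 0.747), which became 0.00 under quantile normalization. The intervals exclude a change as large as that of PTGS2. Within each array PTGS2 minus PTGS1 was 1.55, 1.27 and -0.10 in the controls, 4.34, 4.19 and 4.23 at the low dose and 4.81 and 4.38 at the high dose. Only the change of this quantity between groups can be read, since the rows carry different probes. Its group means rose from 0.91 ± 0.88 (SD, n = 3) through 4.25 ± 0.08 (n = 3) to 4.59 ± 0.31 (n = 2).

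The isozymes differ in the sequence just upstream of their start sites. The 250 bases before the start are shown for both, from RefSeq on GRCh38.p14, 5′ to 3′ on the strand of the gene, at chr1:186680424-186680673 on the minus strand for PTGS2 and chr9:122370283-122370532 on the plus strand for PTGS1. Capitals mark matches on either strand to 7 motifs that were searched: TATAAA, the cAMP response element core TGACG, the C/EBP motif TTNNGNAAT, the AP-1 motif TGANTCA, the Sp1 motif GGGCGG, the EGR motif GCGNGGGCG and the NF-κB consensus.
PTGS2: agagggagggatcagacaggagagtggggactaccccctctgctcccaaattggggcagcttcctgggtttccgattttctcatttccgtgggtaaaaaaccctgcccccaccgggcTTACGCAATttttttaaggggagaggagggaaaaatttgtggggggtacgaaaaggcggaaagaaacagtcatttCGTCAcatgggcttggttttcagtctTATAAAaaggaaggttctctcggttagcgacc
PTGS1: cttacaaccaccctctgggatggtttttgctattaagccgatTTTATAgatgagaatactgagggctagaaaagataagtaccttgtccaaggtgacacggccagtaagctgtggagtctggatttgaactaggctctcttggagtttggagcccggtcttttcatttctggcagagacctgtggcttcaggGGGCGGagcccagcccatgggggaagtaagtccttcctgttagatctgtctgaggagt
In PTGS2 the TATAAA match lay 32 to 27 bases before the start, the TGACG match, on the opposite strand, 58 to 54 bases before it, and the C/EBP match 133 to 125 bases before it. Among 27303 promoters with 250 bases, 11.1% held TATAAA, 21.7% TGACG, and 2732 of them the C/EBP motif. PTGS1 held a TATAAA match on the opposite strand, 208 to 203 bases before its start, and an Sp1 match at 58 to 53 bases, a motif found in 42.3% of the promoters. A match is a matter of letters only, and a motif that was not found says nothing about the factor.

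PTGES encodes microsomal prostaglandin E synthase 1, the inducible synthase that works with cyclooxygenase 2. Array by array the log2 values were 5.38, 5.36 and 5.19 in the controls, 6.17, 6.33 and 5.76 at the low dose, and 6.10 and 5.83 at the high dose. All treated arrays lay above all controls, and low 3 was the lowest of the treated arrays. The rise at the low dose was 0.78 ± 0.18 (adjusted p = 0.0429), a 1.72-fold difference (95% interval 1.31 to 2.26). At the high dose the difference was 0.66 ± 0.20 (adjusted p = 0.171; 95% interval 0.22 to 1.10) and did not pass. High against low dose gave -0.12 ± 0.20 (-0.57 to 0.32), so the doses were not shown to differ. The call at the low dose was close to the threshold. It ended under 9 of 18 alternative settings, among them leaving out any array except low 3. Leaving out either high array repeats the fit of the 2 compared groups alone, so these settings are not separate. Adjusted p-values ran from 0.000864 to 0.189 over all settings, and the difference stayed between 0.66 and 0.95. Without control 3, low 3 and high 2 together it was 0.89 (adjusted p = 0.0132), and the high dose difference then passed as well (0.73, adjusted p = 0.0387).

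The 250 bases before the start of PTGES, at chr9:129753043-129753292 on the minus strand on GRCh38.p14, are shown in the same way because PTGES rose together with PTGS2 at the low dose while sharing none of its matches.
PTGES: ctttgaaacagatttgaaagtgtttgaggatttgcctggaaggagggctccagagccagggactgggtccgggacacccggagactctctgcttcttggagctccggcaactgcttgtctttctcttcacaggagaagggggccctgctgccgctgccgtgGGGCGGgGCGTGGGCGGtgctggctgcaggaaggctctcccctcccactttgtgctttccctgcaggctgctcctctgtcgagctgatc
PTGES held Sp1 matches at 89 to 84 and at 78 to 73 bases before the start, and between them an EGR match at 82 to 74 bases, which overlaps the second Sp1 match. The EGR motif was found in 8.2% of the promoters. AP-1 (6.6% of promoters) matched none of the 8 genes with a promoter entry. The NF-κB consensus (9.6%) matched HPGD alone, and Sp1 also matched HPGD and PTGES2. Only full matches to a motif were counted, so a stretch that departs from one by a single letter, in PTGS2 or elsewhere, is not marked. PLA2G4A, ALOX5AP and LTA4H held no match, and ALOX5 had no entry. In the RefSeq gene order PTGS2 and PLA2G4A are neighbours on chromosome 1, with only the non-coding gene PACERR starting between them.

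PTGES2 encodes a second, membrane-associated prostaglandin E synthase that is expressed constitutively. Its log2 values were 4.31, 4.27 and 4.43 in the controls, 4.17, 4.07 and 3.95 at the low dose, and 4.03 and 3.72 at the high dose. All treated arrays lay below all controls, the opposite side from PTGES. The differences of -0.27 ± 0.15 (adjusted p = 0.480) and -0.47 ± 0.17 (adjusted p = 0.245) did not pass. At the high dose the median difference over all genes was itself -0.12, and -0.02 after quantile normalization. Relative to the median of all genes, PTGES2 stood at -0.35 at the high dose, PTGS2 at 3.66 and PTGES at 0.78.

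HPGD encodes the dehydrogenase that inactivates prostaglandin E2 and is often lost in carcinomas. The log2 values were 3.41, 3.58 and 3.67 in the controls, 4.03, 3.86 and 3.70 at the low dose, and 3.89 and 3.62 at the high dose. The low arrays lay just above the controls, with a gap of only a few hundredths between low 3 and control 3, and the high arrays overlapped them. The differences were 0.31 ± 0.16 (95% interval -0.05 to 0.66, adjusted p = 0.442) and 0.20 ± 0.18 (-0.20 to 0.59, adjusted p = 0.663). No fall of HPGD was detected beside the rise of PTGS2.

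ALOX5 encodes 5-lipoxygenase, which starts leukotriene synthesis. Per array, the log2 level was 2.56, 2.44 and 2.28 in the controls, 2.71, 2.56 and 2.64 at the low dose, and 2.62 and 2.35 at the high dose. The groups overlapped, and all values lay not far above the dim reference. The differences were 0.21 ± 0.15 (-0.13 to 0.55, adjusted p = 0.629) and 0.06 ± 0.17 (-0.32 to 0.43, adjusted p = 0.917), the latter turning to -0.004 with array weights and -0.017 without control 3. The mean level over the 10 leukocyte markers, to which CD68 contributes most, was 2.42 to 2.55 on the control arrays, 2.54 to 2.65 on the low arrays and 2.49 to 2.52 on the high arrays.

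ALOX5AP encodes FLAP, the membrane protein that presents arachidonic acid to 5-lipoxygenase. On the log2 scale it stood at 3.39, 3.61 and 2.95 in the controls, 3.71, 3.75 and 3.33 at the low dose, and 2.43 and 2.11 at the high dose. Both high arrays lay below all other arrays, while the low arrays overlapped the controls. The difference at the low dose was 0.28 ± 0.20 (95% interval -0.17 to 0.73, adjusted p = 0.626). For the high dose it was -1.04 ± 0.23 (adjusted p = 0.0690), a ratio of 0.486 (95% interval 0.343 to 0.687), and -0.92 relative to the median of all genes. The mean of the high arrays, 2.27, lay close to the dim reference and high 2 below it, so the floor may limit this ratio. High against low dose gave -1.32 ± 0.23 (95% interval -1.82 to -0.82, adjusted p = 0.300), which ranked 22 from the lowest of all genes, the largest difference between the treated groups among the 9 genes. Neither comparison passed over all genes. The high dose difference passed under 6 of 17 alternative settings and high against low under 5 of 17, including for both the fit without control 3 (-1.22, adjusted p = 0.00981, against control). Its adjusted p-values ranged from 0.00833 to 0.419 against control and from 0.0118 to 0.771 against the low dose. The direction was kept in each of them.

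LTA4H encodes the hydrolase that completes leukotriene B4 and is expressed in most cell types. Array by array the log2 values were 6.88, 6.84 and 7.14 in the controls, 6.74, 6.66 and 6.37 at the low dose, and 7.02 and 6.76 at the high dose. The low arrays lay below all controls and the high arrays overlapped them. The differences were -0.36 ± 0.17 (95% interval -0.73 to 0.01, adjusted p = 0.364) and -0.06 ± 0.19 (-0.48 to 0.35, adjusted p = 0.914). The sign at the high dose turned under quantile normalization (0.15) and under subtraction of array medians (0.03), so it has no settled direction.

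**Figure D2:**
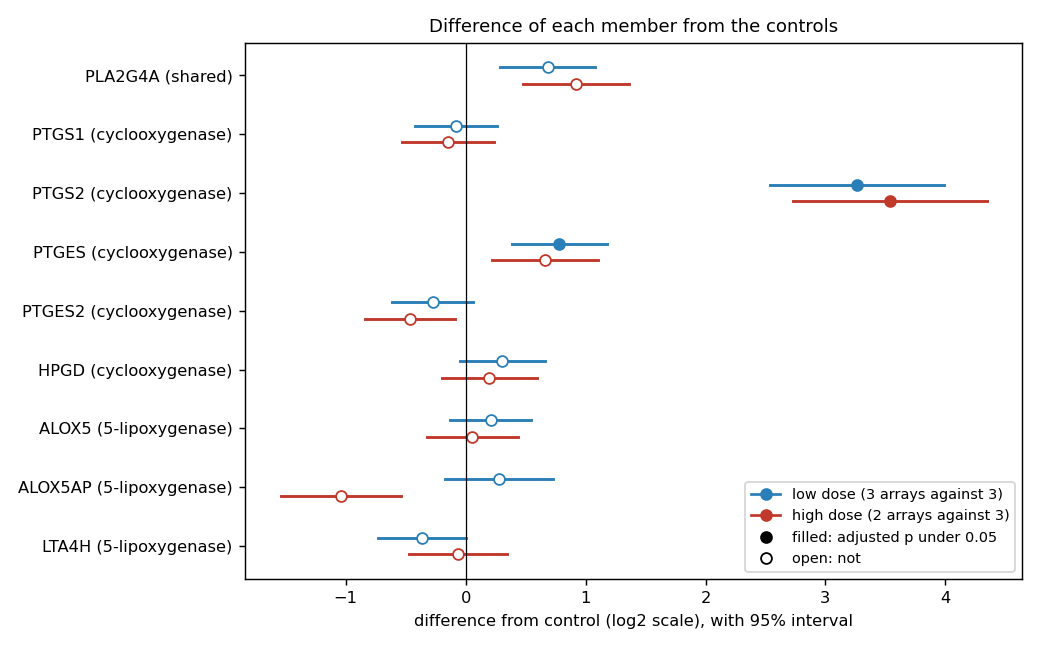
Difference of each gene from the controls on the log2 scale (horizontal axis) with its 95% interval, for the low dose (blue, 3 against 3 arrays) and the high dose (red, 2 against 3 arrays). Filled points passed at an adjusted p under 0.05. PTGS2 stands at 3.26 and 3.54, PTGES at 0.78 and 0.66, PTGS1 at -0.08 and -0.15 with intervals that span 0, and ALOX5AP at 0.28 and -1.04.

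Set side by side, the branches differed in how many genes passed in the reported fit, and this contrast depended on the setting. PTGES did not pass at the low dose under 9 of 18 alternative settings. ALOX5AP passed as lower at the high dose under 6 of 17. With median subtraction, the replicate block, array weights or without control 3, ALOX5AP passed at the high dose and PTGES did not. Within the cyclooxygenase branch the genes did not move as one. At the low dose 2 of 5 measured cyclooxygenase genes passed, with differences from -0.27 (PTGES2) to 3.26 (PTGS2) and a median of 0.31. None of the 3 5-lipoxygenase genes passed, with differences from -0.36 (LTA4H) to 0.28 (ALOX5AP) and a median of 0.21. For the high dose 1 of 5 and none of 3 passed, with medians of 0.20 and -0.06. Over all genes the medians were -0.04 and -0.12, and 3.00% of genes passed at the low dose and 0.814% at the high dose. With shares so small, none of 3 passing does not set the 5-lipoxygenase branch apart from other genes. Without PTGS2 the median of the cyclooxygenase branch was 0.11 at the low dose and 0.03 at the high dose. At the low dose this lies below the median of the 5-lipoxygenase branch, and at the high dose above it. Leaving out the highest of 5 genes lowers a median by construction. Leaving out 1 array moved the 5-lipoxygenase median between 0.10 (without control 3) and 0.28 (without control 1) at the low dose, and between -0.19 (without high 1) and 0.07 (without high 2) at the high dose. Without control 1 the order of the branches at the low dose turned (0.23 for the cyclooxygenase and 0.28 for the 5-lipoxygenase genes). The cyclooxygenase median at the high dose was 0.06 without high 1 and 0.34 without high 2. No test was made of the branches as groups, since the genes were chosen with results known. The treated groups share the same 3 controls, so that the like size of the PTGS2 difference at both doses is not 2 independent observations.

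Per array, the median deviation of the 5 cyclooxygenase genes from their control means was 0.47, 0.30 and 0.15 on the low arrays and 0.34 and 0.06 on the high arrays. That of the 3 5-lipoxygenase genes was 0.28, 0.13 and 0.01 on the low arrays and 0.07 and -0.19 on the high arrays. In both branches low 3 and high 2, the arrays with the lowest 75th percentile, had the lowest median of their group. Control 3 was the lowest control in the 5-lipoxygenase branch (-0.15) but not in the cyclooxygenase branch, where it stood at 0.02 and control 1 at -0.02. The part of this in the medians was not tested. Without control 3, low 3 and high 2 the PTGS2 rises were 2.81 and 3.14 (adjusted p = 0.00115 and 0.0017).

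The genes whose profile over the 8 arrays was nearest to that of PTGS2 were CXCL8, EGR1, KLF2, ATF3 and RHOB. They were picked on these same arrays, so that their likeness to PTGS2 follows from the choice. Nearness was the root mean square difference between the deviations of the genes from their own control means, which was 0.39 for CXCL8, 0.41 for EGR1, 0.54 for KLF2, 0.61 for ATF3 and 0.68 for RHOB. EGR1, an immediate early transcription factor gene, shared with PTGS2 the low value of control 3 (4.26 against 5.76 and 5.79), as did ATF3 (2.21 against 3.41 and 3.56). CXCL8, the gene of the neutrophil chemokine interleukin 8, was level across the controls (2.36, 2.30 and 2.16) and reached 5.46, 5.49 and 5.29 at the low dose and 5.84 and 5.92 at the high dose. RHOB was level as well (5.50, 5.67 and 5.86 in the controls, 8.61, 8.70 and 8.59 at the low dose and 8.42 on both high arrays). The low control 3 value of PTGS2 was thus shared by some of these genes and not by others. KLF2, ATF3 and RHOB had lower means at the high than at the low dose (6.58 against 6.92, 5.66 against 5.73 and 8.42 against 8.63). CXCL8 and EGR1 had higher ones, like PTGS2.

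**Figure D3:**
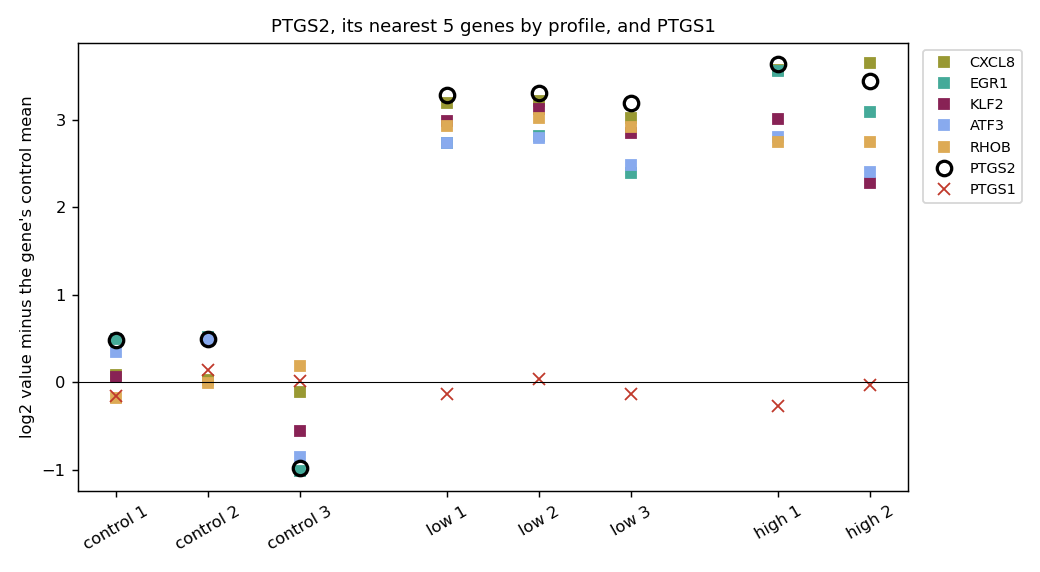
Log2 value minus the control mean of the gene (vertical axis) on each of the 8 arrays (horizontal axis) for PTGS2 (circles), the 5 genes nearest to it (squares) and PTGS1 (crosses). The squares were picked for nearness to PTGS2 on these same arrays. On control 3 EGR1, ATF3 and, less far, KLF2 lie low with PTGS2, while CXCL8 and RHOB do not.

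The rest of the eicosanoid pathway was described from a list of 69 further genes, of which 57 had a row. At the low dose 1 of the 57 passed, as higher, where 3.00% of all genes passed. An unadjusted p under 0.05 was found for 7 of them (3 higher and 4 lower), where 14.1% of all genes had one, and the median was 0.07. Neither of these low dose counts stands above the share over all genes. At the high dose none passed by limma, where 0.814% of all genes did, and 11 had an unadjusted p under 0.05 (1 higher and 10 lower), where 14.5% of all genes had one. The 11 were a somewhat larger share of the 57 than 14.5%, which was not tested. Over all genes that looser threshold was met by 671 as higher and 2526 as lower, so most were lower there too. The median of the list, -0.12, equalled that over all genes. The gene that passed was PLA2G4C, which encodes the gamma form of cytosolic phospholipase A2. Its log2 values were 2.11, 2.39 and 2.31 in the controls, 3.06, 2.87 and 2.89 at the low dose, and 2.54 and 2.31 at the high dose. The control mean, 2.27, lay close to the dim reference of 2.15. The rise at the low dose was 0.67 ± 0.15 (adjusted p = 0.0434). It ended under 11 of 18 alternative settings, among them leaving out any 1 array. Over all 18 settings, whether it passed or not, the adjusted p-values ran from 0.00387 to 0.167. Here too, leaving out either high array repeats the fit of the 2 compared groups alone.

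Other classes of the pathway had no gene that passed. The 7 terminal synthases of the other prostanoids had a median of 0.10 at the low dose and -0.08 at the high dose. The 9 prostanoid receptors had medians of -0.05 and -0.20, with PTGER4, which encodes the prostaglandin E2 receptor EP4, furthest down at the low dose. The log2 values of PTGER4 were 3.23, 2.92 and 2.63 in the controls, 2.30, 2.24 and 2.29 at the low dose, and 2.66 and 2.22 at the high dose. The low arrays lay below all controls, with a difference of -0.65 ± 0.19 (adjusted p = 0.103), which passed without control 3 (-0.80, adjusted p = 0.0387). Their mean, 2.28, lay close to the dim reference. The 5 genes of prostanoid inactivation and transport had medians of -0.34 and -0.35. Of the 5, 4 were on the negative side at the low dose, where 12700 of 22109 genes were, and 5 at the high dose, where 14897 were.

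Of the remaining genes with the largest differences, MGST3, a microsomal glutathione transferase gene, had values of 3.23, 3.18 and 2.80 in the controls and 3.98 and 3.32 at the high dose (0.58 ± 0.26, adjusted p = 0.344). The MGST3 difference was 0.25 without high 1 and 0.91 without high 2, and it passed without control 3, low 3 and high 2 together (adjusted p = 0.0486). COTL1, whose product binds 5-lipoxygenase, was at 7.76, 7.87 and 6.70 in the controls and 6.88 and 6.26 at the high dose, so that control 3 lay below high 1 (-0.87 ± 0.34, adjusted p = 0.270). Without control 3 the COTL1 difference was -1.24 and passed (adjusted p = 0.0187). OXER1, a receptor gene for oxidised arachidonate, had 2.91, 2.63 and 3.15 in the controls and 2.21 and 2.16 at the high dose, below all controls (-0.71 ± 0.19, adjusted p = 0.126). The high dose values of OXER1 lay close to the dim reference. ALOXE3, an epidermal lipoxygenase gene, stood at 0.45 ± 0.22 (adjusted p = 0.390). At the low dose the phospholipase genes PLA2G15 and PLA2G12A stood at 0.60 ± 0.31 (adjusted p = 0.432) and -0.57 ± 0.20 (adjusted p = 0.208). The PLA2G15 difference was 0.22 without control 3 and 0.84 without low 3.

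**Figure D4:**
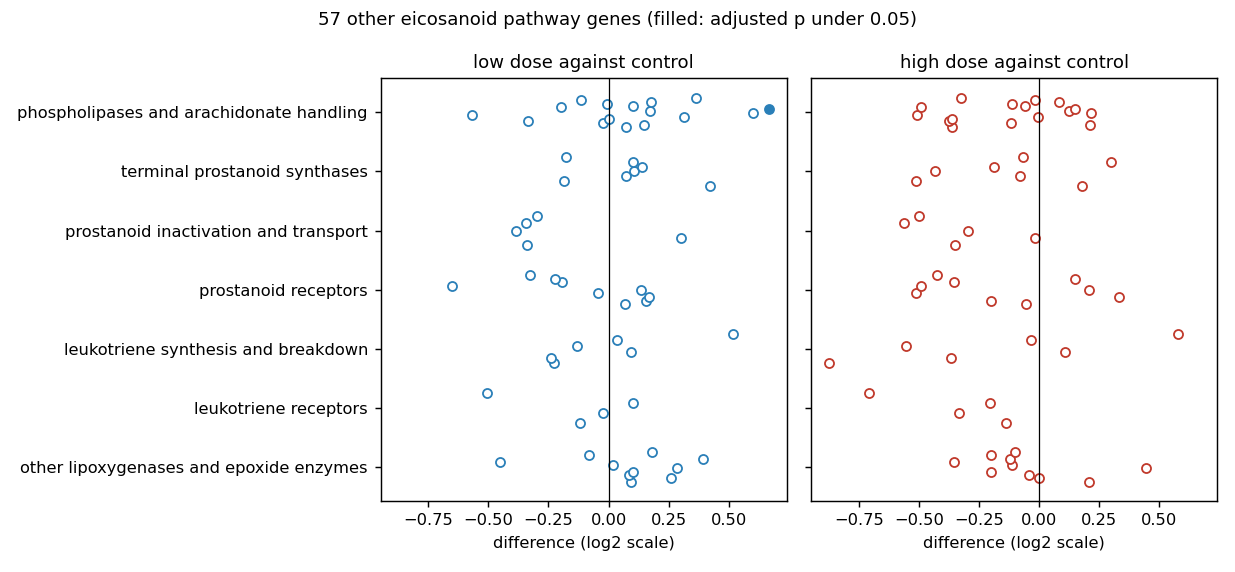
Difference from control on the log2 scale (horizontal axis) of 57 further eicosanoid pathway genes in 7 classes (vertical axis), with the low dose on the left and the high dose on the right. Each point is 1 gene, filled where it passed. The single filled point is PLA2G4C at 0.67, and all others lie between -0.87 and 0.60.

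**Figure D5:**
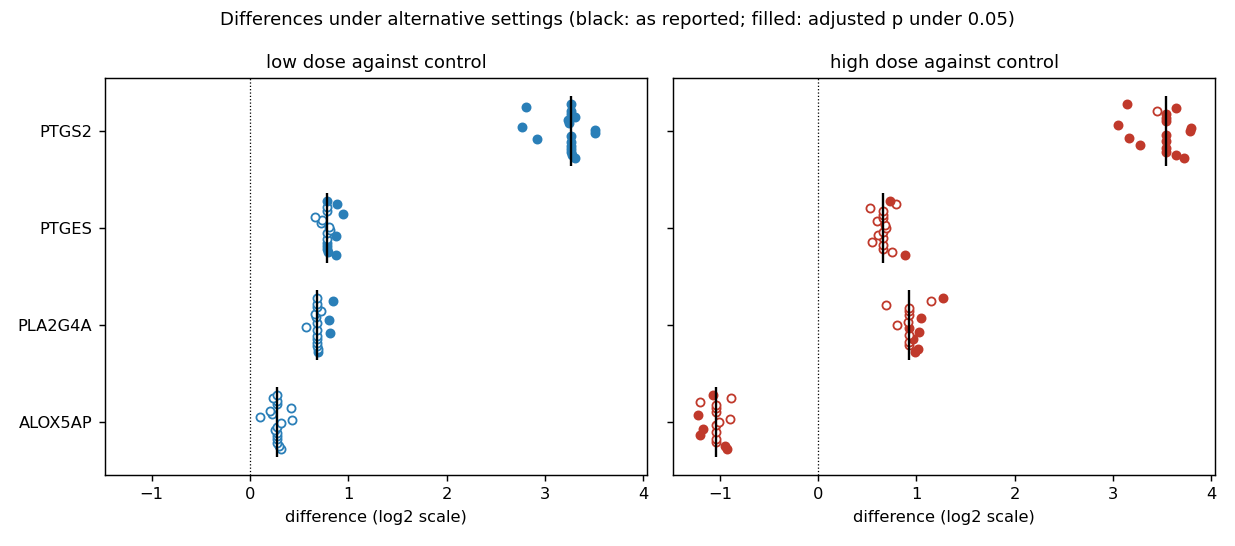
Differences from control on the log2 scale (horizontal axis) of PTGS2, PTGES, PLA2G4A and ALOX5AP under each alternative setting (points, filled where the adjusted p was under 0.05) and as reported (black lines). PTGS2 ranged from 2.77 to 3.51 at the low dose and from 3.05 to 3.79 at the high dose, and ALOX5AP from -1.22 to -0.88 at the high dose.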

How the data were processed

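The 8 Affymetrix arrays, 1 per MDA-MB-231 sample, were grouped by sample title. The authors deposited log2 expression values for 53617 rows. Transcriptome Analysis Console is the tool named, per the submitters' processing notes, and how it summarized or normalized is not stated there. The base 2 rests on the highest value, 12.10, which exceeds the natural logarithm of a 16-bit ceiling (11.09). Arrays have no read depth, and their number limits the precision.

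Rows were named through the supplied platform annotation: 23558 had 1 symbol, 2155 several and 27904 none here. For the 618 genes with several rows the one with the highest mean was kept. Limma 3.58.1 in R 4.3.3 (lmFit, contrasts, eBayes) was fitted over all 8 arrays with 1 mean per group and no block (5 residual and 6.0 prior degrees of freedom), and tested on simulated data. The members, gene lists and tests were chosen with earlier results of these data known. Named were all members with a row, pathway genes that passed and, since these were few, the 2 largest differences per direction and treated group, and the 5 genes nearest to PTGS2.

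Same-numbered control and low arrays deviated together from their group means (correlations 0.103, 0.153 and 0.203). By a limit of 0.1 the numbers were taken to pair them. The high arrays were not taken as paired, with 0.094 and -0.049 against control and 0.214 and -0.177 against low. The value 0.094 lies just under the limit and 0.103 just over it. The reported fit has no block, so its standard errors and p-values leave the pairing out. Arrays with different numbers give no baseline here, since only same-numbered pairs were correlated. The correlation of 0.203 belongs to control 3 and low 3, which had the lowest medians of their groups (2.72 and 2.69). Whether pairing or a shared array quality gave these correlations was not tested. Alternatives were quantile normalization, median subtraction, a dim filter, the mean of rows, the replicate block, fits of 2 groups, array weights, a trended robust prior and leaving out each array. Promoters were read from RefSeq (GRCh38.p14).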

Additional observations from a re-analysis of the deposited data

How the results depend on the processing

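The low dose rise of PTGS2 passed under all 18 alternatives. For low against control, leaving out either high array gives the same fit as the compared groups alone, so these alternatives are not separate. Low dose: the 2 members that passed became 1 (PTGS2) when only the compared groups were fitted and with the trended robust prior. The 664 genes became 1178 by quantile normalization, 1059 with the replicate block, 2055 with array weights and 1278 without control 3, low 3 and high 2 (this last chosen after seeing the data, as was the block over control and low arrays alone). The 1 pathway gene became 0 with the compared groups alone, the trended prior or the block over control and low arrays alone, and 2 with array weights or without the 3 arrays, where the cyclooxygenase median was 0.44. Neither block changed the call of a member at the low dose. High dose: the 1 member became 4 by quantile normalization (adding PTGES, PLA2G4A and ALOX5AP) and without the 3 arrays, 3 with median subtraction, the replicate block or array weights, and 2 with the trended prior. The 180 genes became 462, 283, 1228, 46, 1004 and 1563 with quantile normalization, median subtraction, the block, the compared groups alone, array weights and without the 3 arrays. The 0 pathway genes became 1, 1 and 2 with the block, array weights and without the 3 arrays. The branch medians were 0.36 and 0.15 by quantile normalization, and 0.39 and 0.12 without the 3 arrays. High against low: the 0 members became 1 (ALOX5AP) with the block, the compared groups alone, array weights or without the 3 arrays, and the 1 gene became 2 by quantile normalization and 219, 53, 69 and 220 under those 4.

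Leaving out 1 array gave 1 to 2 members, 266 (without low 2) to 658 genes and 0 to 1 pathway genes at the low dose. At the high dose it gave 0 (without high 1) to 3 members (without control 3), 19 (without high 1) to 990 genes (without control 3), 0 to 1 pathway genes and cyclooxygenase medians of 0.06 to 0.34. For high against low it gave 0 to 1 members, 0 to 174 genes (without control 3) and cyclooxygenase medians of -0.25 to 0.01. Leaving out a high array left 1, assumed to vary like the other groups.

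Signs turned only for differences that had not passed. At the high dose these were PTGS1 (0.003 by quantile normalization), LTA4H (0.153 by quantile normalization, 0.033 by median subtraction, 0.005 with array weights, 0.158 without the 3 arrays, -0.194 to 0.066 leaving out 1 array) and ALOX5 (-0.004 with array weights, -0.077 to 0.189 leaving out 1 array). For high against low they were PTGS1 (0.055 by quantile normalization, 0.019 by median subtraction, -0.187 to 0.053 leaving out 1 array), PTGES (0.011 by quantile normalization, -0.288 to 0.008 leaving out 1 array) and HPGD (0.018 by quantile normalization, -0.246 to 0.028 leaving out 1 array). The causes of these changes were not tested. PLA2G4A, a dim row, did not pass at either dose as described. The part that the number of arrays and the missing measure of background had in this was not tested.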
